A study of Mus musculus with 7 samples.

Results

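Nuclear-encoded oxidative phosphorylation (OXPHOS) subunits were examined in liver neutrophils, as the rows of the expression table whose symbols name subunits of complexes I to V. The rule took symbols that start with Ndufa, Ndufb, Ndufc, Ndufs, Ndufv, Uqcr, Cox4 to Cox8 or Atp5, together with Sdha, Sdhb, Sdhc, Sdhd and Cyc1, and left out the Ndufaf assembly factors. It caught 83 of 16047 rows, of which 80 had a mean of at least 1 RPKM (a read count scaled to the transcript's length and to the reads mapped in the library) over the 7 libraries and are the members, among 9594 genes that passed the same filter. Sorted by symbol, 37 members were counted under complex I, 4 under complex II and 9 under complex III. A further 13 were counted under complex IV and 17 under complex V, the ATP synthase. Ndufa4 is counted under complex I though now placed in complex IV, and Atp5s and Atp5sl under complex V though no subunits. The rows that failed the filter were Cox7a1 with a mean of 0.667 RPKM, Cox6b2 with 0.481 RPKM and Ndufa4l2, listed at 0 in all 7 libraries, while the members just above it were Cox6a2 with 1.12 RPKM, Atp5s with 1.30 RPKM and Uqcrb with 2.60 RPKM. The mitochondrially encoded subunits were not analysed here.

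The neutrophils were sorted from perfused livers of C57BL/6 mice, 50000 CD11b+Ly6CloCX3CR1-GFP-Ly6G+ cells per liver, 24 h after an acetaminophen (APAP) overdose that causes acute liver injury (AILI). Both groups received APAP. The MC-21 group (n = 3, replicates 2 to 4) was also injected with conditioned medium that holds MC-21, an antibody against mouse CCR2 that removes Ly6Chi monocytes, in 400 µL at 29 µg/mL, from 12 h before APAP and every 24 h, and the PBS group (n = 4, replicates 5 to 8) received saline on the same schedule. The study's methods describe adult males, of the wild type or carrying a GFP reporter in 1 copy of Cx3cr1, and the labels do not say which animals carried it, although GFP is part of the sort gate. The depletion also removes the macrophages that arise from those monocytes, which the study places in the later resolution phase. At 24 h the comparison thus asks how neutrophils of the injured liver differ when the monocytes are missing.

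Each library was a 3′ library from 1 liver, with reads counted near the end of the transcript. In a transcript of 1 kb, 1 RPKM stood for 1.59 to 3.96 reads, as read from the steps between low values, so the members above 100 RPKM rest on many reads and those near 1 RPKM on a handful. All 12 neutrophil markers were above 0 in every library, with a summed level of 18552 to 31678 RPKM in PBS and 28459 to 42080 RPKM in MC-21 libraries. The 19 monocyte and macrophage markers summed to 637 to 754 RPKM in PBS and 331 to 418 RPKM in MC-21 libraries, and these sums did not overlap. Singly, 8 of the 15 that passed the filter lay wholly lower in MC-21, against 10.2% of all tested genes. Ccr2 itself was at 1.91 to 3.26 RPKM in PBS and 0 to 0.390 RPKM in MC-21 libraries. The 17 hepatocyte markers (1189 to 1614 against 1295 to 1452 RPKM), the 12 endothelial markers (1824 to 3500 against 1817 to 3430 RPKM) and the 8 erythroid markers (484 to 1261 against 852 to 1263 RPKM) overlapped. The 11 lymphocyte markers summed to 19.7 to 43.6 RPKM in PBS and 12.7 to 17.7 RPKM in MC-21 libraries, without overlap. In sorted bulk cells, fewer cells of a type and less RNA per cell cannot be told apart. Endothelial, hepatocyte and erythroid markers were also present in every library, so a level below may hold RNA of other cells. The part of any of these cell types, and of the monocyte and lymphocyte differences, in the values below was not tested.

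The OXPHOS system sits in the inner mitochondrial membrane. Complexes I and II take electrons from NADH and succinate and pass them through ubiquinone to complex III, cytochrome c carries them on to complex IV, which reduces oxygen, and the proton gradient that complexes I, III and IV build drives the ATP synthase. Neutrophils are known for few mitochondria and a reliance on glycolysis, and nuclear respiratory factor 1 (NRF1) is known as an activator of many genes of this system.

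One feature that the symbols do not use is the sequence at the start of these genes. RefSeq promoters (GRCm38.p6, 250 bases before to 50 after the start) matched 67 of the 80 members, 3 of them by a synonym, and 9 of these 67 (13.4%) held CGCATGCG, a core of the NRF1 motif that reads the same on both strands, against 4.52% of the tested genes with a promoter and 2.07% of all genes. The 7 members that hold these letters wholly before the start are shown, since they span the level range from the top member downwards and 3 complexes; each stretch runs 5′ to 3′ on the gene's strand, with up to 30 bases on either side where the window and the start allow, and the capitals mark the 8 letters.
Cox6a1 (chr5:115349082-115349149, minus strand): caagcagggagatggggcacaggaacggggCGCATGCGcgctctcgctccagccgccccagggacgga
Atp5l (chr9:44920946-44920992, minus strand): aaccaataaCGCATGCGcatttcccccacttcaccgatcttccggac
Atp5g2 (chr15:102671051-102671118, minus strand): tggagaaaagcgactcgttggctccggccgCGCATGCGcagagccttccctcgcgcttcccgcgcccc
Atp5j (chr16:84835086-84835153, minus strand): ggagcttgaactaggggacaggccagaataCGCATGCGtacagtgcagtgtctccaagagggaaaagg
Atp5k (chr5:108434411-108434478, minus strand): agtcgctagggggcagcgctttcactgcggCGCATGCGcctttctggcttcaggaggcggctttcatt
Ndufa8 (chr2:36049339-36049377, minus strand): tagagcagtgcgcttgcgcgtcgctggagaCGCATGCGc
Ndufa11 (chr17:56717673-56717740, plus strand): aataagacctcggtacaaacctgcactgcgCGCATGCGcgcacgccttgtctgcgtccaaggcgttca
The other 2 are Uqcr11 and Uqcrc1, in which the letters span or follow the start. By complex, the letters were in 2 of 33 promoters of complex I, 2 of 5 of complex III, 1 of 10 of complex IV, 4 of 16 of complex V and 0 of 3 of complex II. AAGATGGCG, a YY1 core, was in 11.9% of the members' promoters and in 4.02% of the tested genes, CCGGAAG, an ETS core, in 23.9% against 21.5%, GGGCGG, an SP1 core, in 40.3% against 68.3%, and TCAAGGTCA, an ERR core, in 2.99% against 0.350%, each sought on both strands. These matches are descriptions of letters in a window, not of binding.

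The members were among the more abundant transcripts of these libraries. Their median level was 106 RPKM, against 7.73 RPKM over all tested genes, and 44 of 80 (55%) reached 100 RPKM, against 7.28% of all tested genes. Together they made up 2.59 to 2.97% of all RPKM in a library. The levels spanned 1.12 to 1351 RPKM, and the medians were 82.4 RPKM for complex I, 80.6 for complex II, 107 for complex III, 134 for complex IV and 293 for the ATP synthase. Levels between genes are per length and are only a guide here, since reads of 3′ libraries do not grow with transcript length. Short transcripts are thus raised over long ones.

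**Figure D1:**
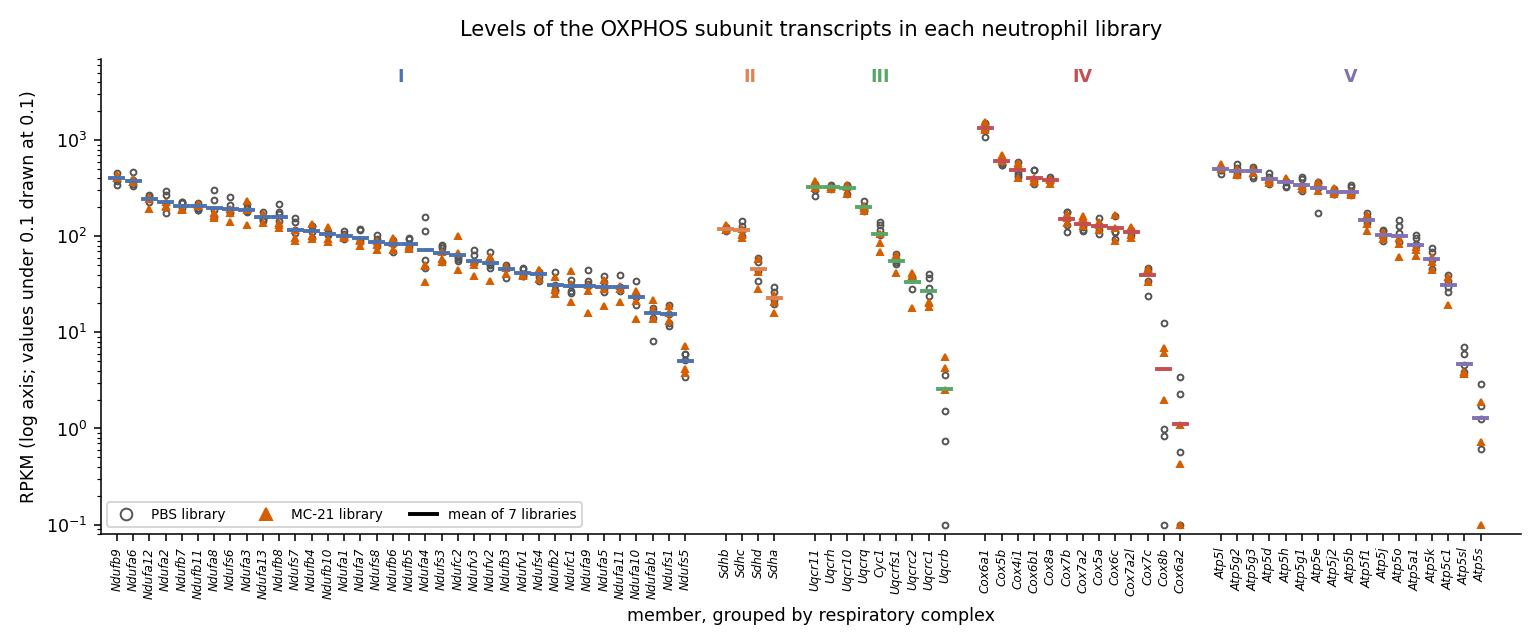
RPKM (log axis) of 79 of the 80 members in each of the 7 libraries, with open circles for PBS libraries, triangles for MC-21 libraries and a bar for the mean, sorted by level within each complex; values under 0.1 are drawn at 0.1. The highest member is Cox6a1 at a mean of 1351 RPKM, and 6 of 80 members are under 10 RPKM.

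Complex I was led by 3 accessory subunits. Ndufb9 was at 452, 377, 344 and 405 RPKM in PBS replicates 5 to 8 and at 433, 404 and 405 RPKM in MC-21 replicates 2 to 4, Ndufa6 was at 334 to 462 RPKM in PBS and 366 to 396 RPKM in MC-21, and Ndufa12 was at 227 to 270 RPKM and 193 to 255 RPKM. All 3 overlapped between the groups. The 37 members of the complex ran from 5.09 to 403 RPKM, and 15 of them reached 100 RPKM. Ndufab1, which is also the acyl carrier protein of mitochondrial fatty acid synthesis, was at a mean of 15.8 RPKM. Ndufs5 was lowest in this complex, at 5.09 RPKM, and its transcript end has a near-identical copy elsewhere in the genome.

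Complex II, succinate dehydrogenase, has 4 subunits that are all nuclear-encoded. Sdhb, the iron-sulfur subunit, was at 116, 124, 121 and 113 RPKM in PBS and 116, 130 and 117 RPKM in MC-21 libraries, the most even of the 4. Sdhc and Sdhd, the membrane anchors, were at means of 115 and 45.8 RPKM, and Sdha, the flavoprotein, at 22.7 RPKM. The order Sdhb and Sdhc, then Sdhd, then Sdha was the same in all 7 libraries, whereas Sdhb and Sdhc crossed between libraries.

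Complex III was led by small subunits, Uqcr11 at a mean of 326 RPKM, Uqcrh at 326 RPKM and Uqcr10 at 316 RPKM, which did not differ beyond their spread. Uqcrh, the hinge protein that contacts cytochrome c1, was within 308 to 339 RPKM in all 7 libraries. The core proteins and electron carriers (Uqcrc1, Uqcrc2, Cyc1 and the Rieske protein Uqcrfs1) were at 27.1 to 107 RPKM. Their longest annotated transcripts have 1194 to 1850 bases, against 605, 801 and 510 bases for Uqcr11, Uqcrh and Uqcr10. The part of transcript length in this order was not tested. Uqcrb, a small subunit near the quinone site, stood apart at 0, 3.58, 0.747 and 1.51 RPKM in PBS and 5.57, 2.50 and 4.29 RPKM in MC-21 libraries, or 0 to 10 reads. Its transcript end has a near-identical copy elsewhere in the genome, so how the authors' software placed such reads bears on its value.

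Complex IV held the highest member, Cox6a1, at 1459, 1500, 1264 and 1091 RPKM in PBS and 1327, 1555 and 1264 RPKM in MC-21 libraries, above 99.5% of all tested genes. Cox5b followed at a mean of 606 RPKM and Cox4i1 at 493 RPKM, both of which act in the nuclear-encoded shell around the catalytic core. The paralogue pairs of this complex were one-sided. Cox6a1 made up 99.7 to 100% of the Cox6a pair against the muscle form Cox6a2, Cox7a2 made up 97.3 to 100% of its pair with Cox7a1, Cox8a made up 96.7 to 100% of its pair with Cox8b, and Cox6b1 made up 99.7 to 100% of its pair with the testis form Cox6b2. The reads behind the minor forms were few, with 18 in all for Cox6a2, 28 for Cox8b, 5 for Cox7a1 and 3 for Cox6b2 over the 7 libraries. Cox7a2l, a relative of Cox7a2, was at 95.8 to 126 RPKM.

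The ATP synthase was led by Atp5l (subunit g) at a mean of 502 RPKM and by the c-ring genes Atp5g2 at 476 RPKM and Atp5g3 at 474 RPKM. The 3 c-ring genes encode the same mature protein, and Atp5g1 had the lowest share of their summed RPKM in every library. The shares were 23.1 to 29.7% for Atp5g1, 35.1 to 38.5% for Atp5g2 and 31.7 to 41.5% for Atp5g3. Atp5g2 has near-identical copies in the genome, so its share is uncertain. The 5 subunits of the F1 head and central stalk ran from 31.4 RPKM for Atp5c1 to 391 RPKM for Atp5d, with a median of 293 RPKM, and the 4 peripheral stalk subunits (Atp5f1, Atp5h, Atp5j and Atp5o) from 102 to 369 RPKM. Atp5e, the epsilon subunit, was at 173 RPKM in PBS replicate 5 and at 297 to 365 RPKM in the other 6 libraries. The rule also caught Atp5s and Atp5sl, which are no subunits of the enzyme, at 1.30 and 4.66 RPKM.

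Near-identical copies of a transcript end (at least 98% identity over at least 100 of the last 500 bases, in mm9) were found for 11 members, 3 copies each for Atp5g2, Atp5l and Cox7c and 1 each for Atp5f1, Atp5h, Atp5j, Cox5b, Ndufs3, Ndufs5, Uqcr11 and Uqcrb. Their values are uncertain, because reads from a gene and its copy may be shared or dropped. The 11 had a median of 148 RPKM and the other 69 members a median of 105 RPKM.

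No member differed between MC-21 and PBS neutrophils at an adjusted p under 0.05 (limma on log2(RPKM + 1), Benjamini-Hochberg over 9594 genes), in either direction, and none did with the unmoderated two-sample test. The lowest adjusted p was 0.193, for Uqcrc1. Over all tested genes 0.427% were called lower and 0.198% higher in MC-21, so with 80 members fewer than 1 call in all corresponds to the background. At an unadjusted p under 0.05, 7 members (8.75%) were lower, against 11.2% of all tested genes, and 1 (1.25%) was higher, against 3.59%. Both shares were below those of all tested genes. Among genes between the 10th and 90th percentile of the members' levels, 10.9% of 64 members were lower, against 11.2% of the 2247 other genes. In that band 0 members were higher, against 6.23% of the other genes.

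The precision of the fit bounds the size of what could have been missed. For 72 of 80 members (90%) the 95% interval of the difference lay within 1 on the log2 scale, that is within 2-fold either way, against 74.7% of all tested genes. The 8 members with a wider interval were Ndufa4, Ndufa9, Uqcrc1, Uqcrb, Cox8b, Cox6a2, Atp5o and Atp5s. The residual SD between libraries had a median of 0.212 over the members and 0.282 over all tested genes on the log2 scale, and within the band of levels that holds the central members it was 0.200 for the 64 members and 0.230 for the 2247 other genes.

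**Figure D2:**
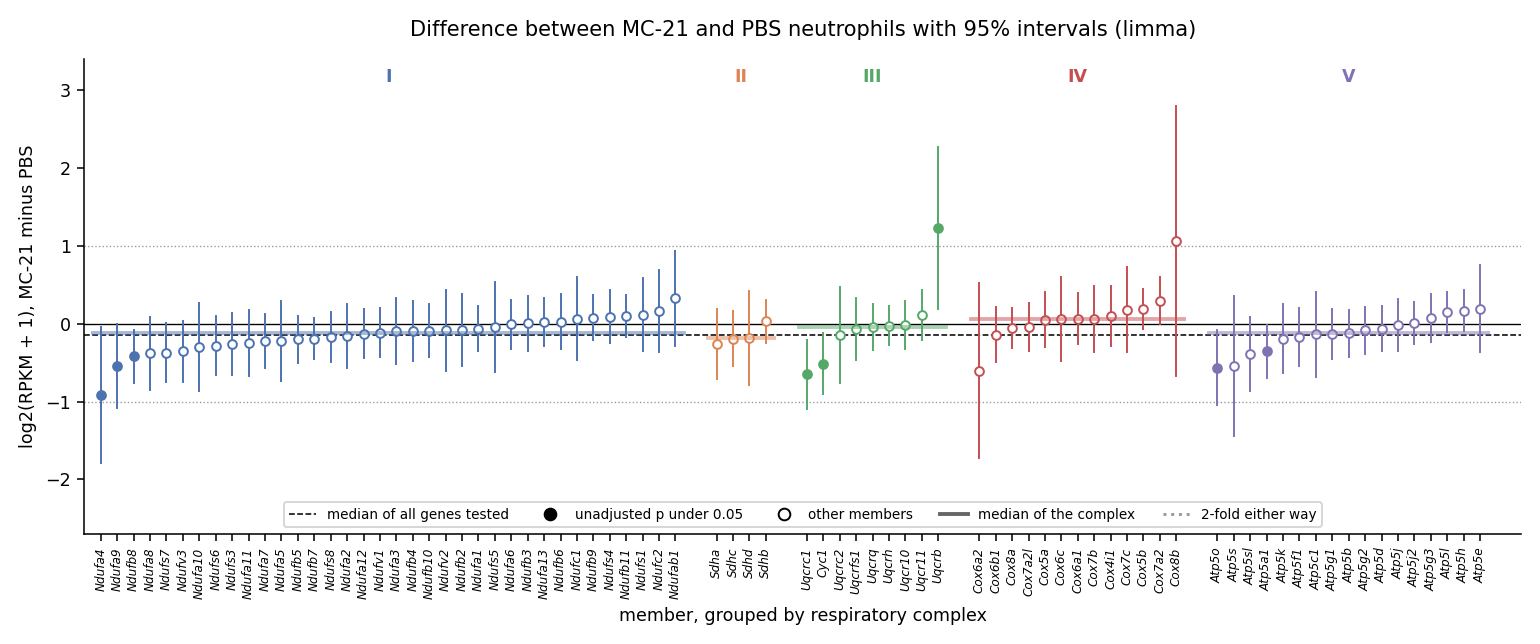
Difference on log2(RPKM + 1), MC-21 minus PBS, with its 95% interval from limma for 79 of the 80 members by complex; filled points have an unadjusted p under 0.05, coloured bands are the medians of the complexes and the dashed line is the median of all tested genes at -0.15. Points of complex I, II, III and V lie around the dashed line, with complex medians from -0.19 to -0.04, and those of complex IV around 0.06.

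The median of all tested genes was itself -0.15 on the log2 scale, and member differences are read against it. The members' median was -0.09, and 53 of 80 (66.3%) were lower in MC-21, against 69.4% of all tested genes. The complexes had medians of -0.12 (I), -0.19 (II), -0.04 (III), 0.06 (IV) and -0.13 (V). In the band of levels that holds the central members, the 64 members had a median of -0.11 and the 2247 other genes one of -0.09. There, 73.4% of the members and 63.8% of the other genes were lower in MC-21. After subtraction of each library's own median, the members' median became 0.08 and those of complexes I, III and V turned positive (0.05, 0.12 and 0.04). With quantile normalization they stayed negative, at -0.05 for the members and at -0.07, -0.01 and -0.10 for these complexes. The sign of these small values thus differed between scalings.

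The summed RPKM showed the same evenness without logarithms. All members together summed to 14915, 13657, 12886 and 13815 RPKM in PBS and 13196, 14186 and 13061 RPKM in MC-21 libraries, 13818 ± 836 (SD, n = 4) against 13481 ± 614 (SD, n = 3). The sums of complexes I to V each overlapped between the groups. Complex I summed to 4213 ± 430 RPKM in PBS and 3835 ± 210 in MC-21, complex II to 313 ± 30.3 and 291 ± 30.2, complex III to 1412 ± 79.8 and 1372 ± 61.9, complex IV to 3869 ± 329 and 4022 ± 281, and complex V to 4012 ± 133 and 3961 ± 93.4 (SD, n = 4 and 3). Relative to its level, the ATP synthase sum had the smallest spread and the smallest difference.

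**Figure D3:**
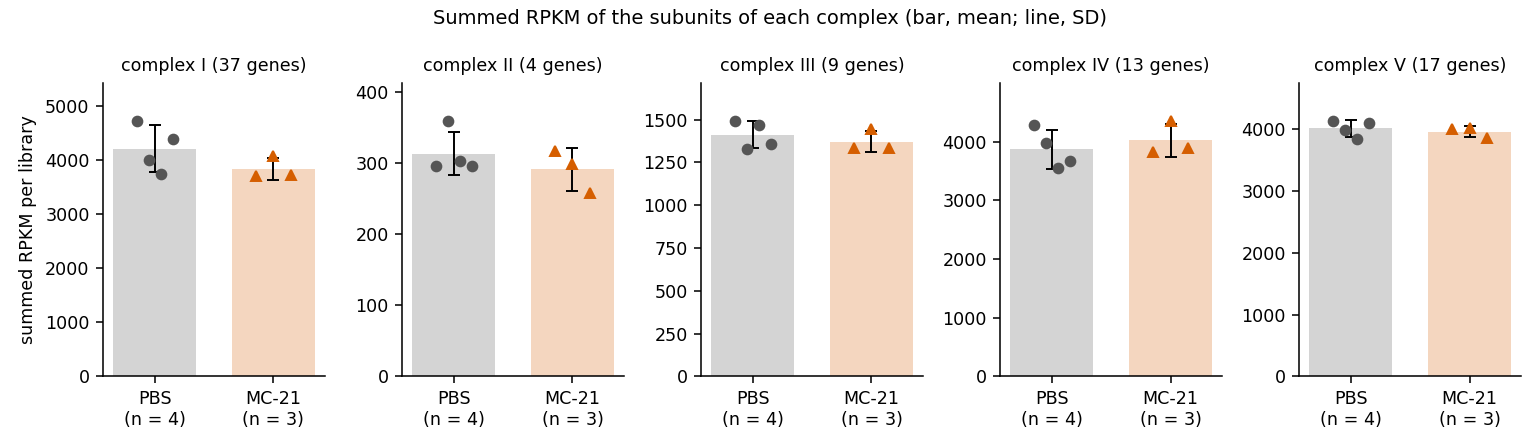
Summed RPKM of the subunits of each complex in each library (points), with the mean (bar) and SD (line) of the 4 PBS and 3 MC-21 libraries; each axis starts at 0 and has its own scale. The groups overlap in all 5 complexes, from complex I (4213 against 3835 RPKM) to complex V (4012 against 3961 RPKM).

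The balance between complexes within a library does not depend on a library's scaling factor, which cancels. Of the 10 ratios between the sums of 2 complexes, 9 overlapped between the groups and 1 did not, complex IV over complex I, which was singled out after its values were seen and is given with no test. Of all tested genes, 13.3% had groups that do not overlap in either direction. That share is of single genes, whereas the 10 ratios share their sums, so it is only a rough guide. Nothing is read from the count. The ratio was 0.908, 0.991, 0.949 and 0.837 in PBS replicates 5 to 8 and 1.03, 1.07 and 1.05 in MC-21 replicates 2 to 4, or 0.921 ± 0.0654 (SD, n = 4) against 1.05 ± 0.0163 (SD, n = 3). The 3 MC-21 libraries lay above all 4 PBS libraries, by a mean of 1.14-fold. The groups also did not overlap without Cox6a1 (0.589 to 0.617 in PBS, 0.675 to 0.706 in MC-21), with Ndufa4 counted in complex IV (0.886 to 1.02 and 1.05 to 1.09), without the members that have near-identical copies (0.709 to 0.852 and 0.864 to 0.898), or with geometric means in place of sums (1.33 to 1.61 and 1.65 to 1.71). The summed monocyte and macrophage markers and the summed lymphocyte markers separate the same libraries, and their part in this ratio was not tested.

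**Figure D4:**
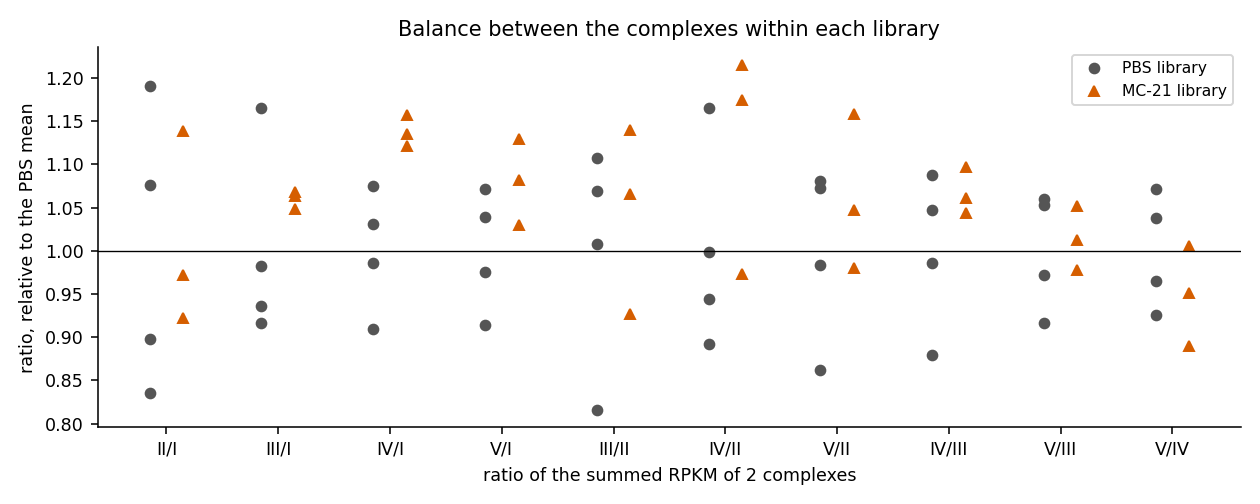
The 10 ratios between the summed RPKM of 2 complexes in each library, each divided by its mean over the 4 PBS libraries, with circles for PBS and triangles for MC-21. Only for complex IV over complex I do the 3 MC-21 libraries (1.03 to 1.07 before division) lie above all 4 PBS libraries (0.837 to 0.991).

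The members with an unadjusted p under 0.05 were 3 of complex I, 3 of complex III and 2 of the ATP synthase, none of which passed the adjustment. Uqcrc1, a core protein of complex III (chr9:108838661-108851685 in mm9, plus strand), was at 28.8, 23.8, 36.6 and 40.7 RPKM in PBS and 20.5, 18.6 and 20.6 RPKM in MC-21 libraries. All MC-21 libraries were below all PBS libraries, with a difference of -0.65 ± 0.20 (SE) on log2(RPKM + 1), an unadjusted limma p of 0.00857 and an exact two-sided permutation p of 0.0571. Cyc1, cytochrome c1 (chr15:76173953-76176364 in mm9, plus strand), was at 130, 140, 117 and 103 RPKM in PBS and 105, 85.2 and 69.0 RPKM in MC-21 libraries, with 1 overlapping library and a difference of -0.51 ± 0.18 (SE, limma adjusted p = 0.241). The other 2 large members of the complex had differences of -0.15 (Uqcrc2) and -0.07 (Uqcrfs1), which are at and above the all-gene median of -0.15. Uqcrb was the 1 member on the higher side, at 1.23 ± 0.46 (SE) and a limma adjusted p of 0.277, on 0 to 10 reads per library.

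In complex I, Ndufb8, a membrane-arm accessory subunit, was at 214, 170, 145 and 177 RPKM in PBS and 132, 124 and 137 RPKM in MC-21 libraries, which do not overlap, with a difference of -0.42 ± 0.15 (SE, limma adjusted p = 0.266). Ndufa9, which sits near the quinone site, was at 30.4 to 44.5 RPKM in PBS and 15.8 to 30.9 RPKM in MC-21 libraries, with a difference of -0.54 ± 0.24 (SE). Ndufa4, a subunit first assigned to complex I and now placed in complex IV (chr6:11850373-11857446 in mm9, minus strand), had the largest negative difference of all members, -0.92 ± 0.39 (SE, limma adjusted p = 0.325). Its values were 159, 56.1, 46.6 and 113 RPKM in PBS replicates 5 to 8 and 33.6, 48.5 and 50.4 RPKM in MC-21 libraries, so the difference rests on PBS replicates 5 and 8, and the other 2 PBS libraries are within or near the MC-21 range. The exact two-sided permutation p for Ndufa4 was 0.200, where the smallest that the 35 splits allow is 0.0286.

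In the ATP synthase, Atp5a1, the catalytic head's alpha subunit, was at 83.2, 79.1, 97.1 and 104 RPKM in PBS and 62.6, 77.8 and 71.6 RPKM in MC-21 libraries, which do not overlap, with a difference of -0.35 ± 0.15 (SE, limma adjusted p = 0.326). Atp5o, the oligomycin-sensitivity protein of the peripheral stalk, was at 148, 88.3, 109 and 127 RPKM in PBS and 60.6, 95.2 and 82.9 RPKM in MC-21 libraries, with a difference of -0.56 ± 0.21 (SE). The beta subunit Atp5b, the partner of Atp5a1 in the head, had a difference of -0.13. Of the 17 members counted under complex V, 12 had a negative difference (70.6%, against 69.4% of all tested genes). Atp5s and Atp5sl, which are no subunits, are among the 12. In the membrane part, Atp5k (subunit e) had a difference of -0.19 and Atp5l (subunit g), which has near-identical copies, one of 0.15, and neither passed the test.

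**Figure D5:**
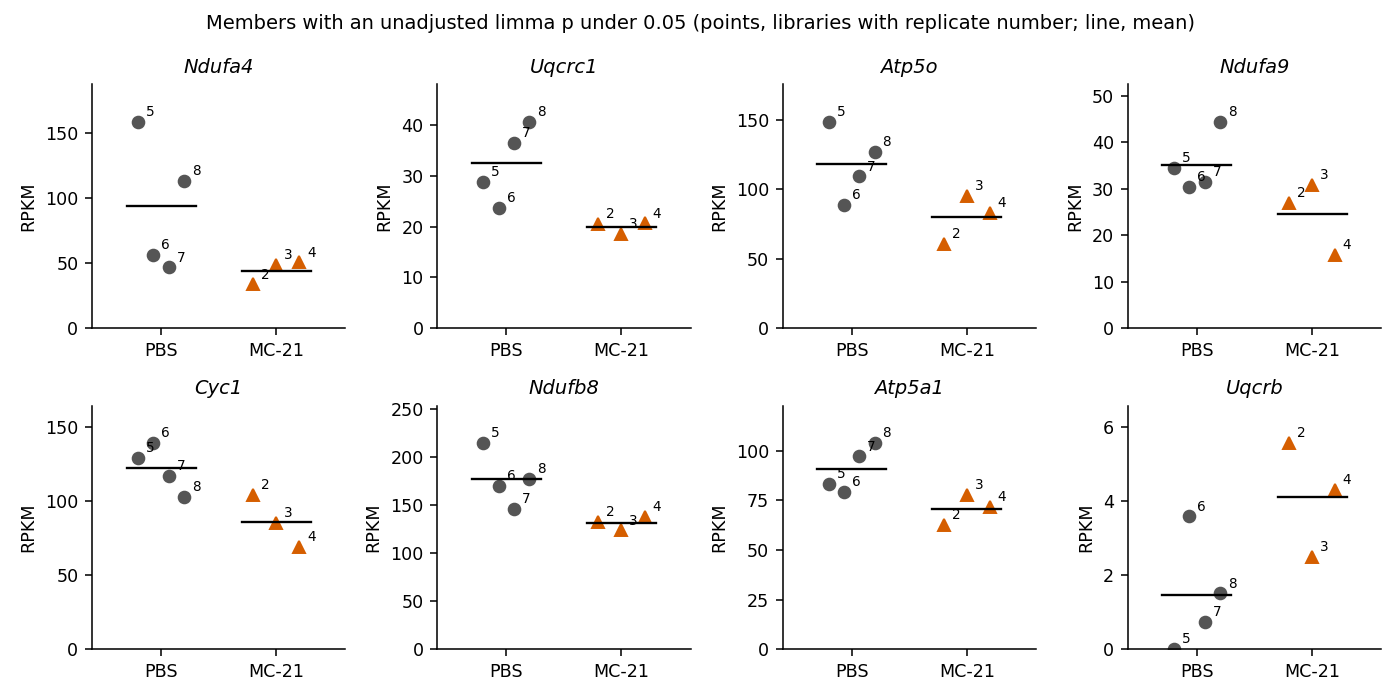
RPKM of the 8 members with an unadjusted limma p under 0.05, by library (points, with the replicate number) and group mean (line), on axes that start at 0. Uqcrc1, Ndufb8 and Atp5a1 do not overlap between the groups, Ndufa4 is set apart by PBS replicates 5 and 8, and Uqcrb is under 6 RPKM throughout.

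Counted without a model, 4 members had every MC-21 library below every PBS library (Uqcrc1, Ndufb8, Atp5a1 and Ndufb7), against 10.2% of all tested genes, and 3 had every MC-21 library above (Cox5b, Atp5l and Atp5h), against 3.1%. Ndufb7 was at 198 to 229 RPKM in PBS and 190 to 193 RPKM in MC-21 libraries. Cox5b was at 551 to 602 RPKM in PBS and 604 to 696 RPKM in MC-21 libraries, a difference of 0.19 with a 95% interval from -0.06 to 0.44. All 3 on the higher side have a near-identical copy in the genome. With centred libraries, 6 members lay wholly higher, against 7.01% of all tested genes, and 0 lay wholly lower, against 4.27%. Cox7a2 had a difference of 0.30 with a 95% interval from -0.01 to 0.60, at 113 to 130 RPKM in PBS and 130 to 164 RPKM in MC-21 libraries.

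The highest value of a member lay in PBS replicate 5 for 22 members (27.5%, against 16.0% of all tested genes), in PBS replicate 8 for 17, in PBS replicate 6 for 16, in MC-21 replicate 3 for 15 and in the other 3 libraries for 3 or 4 each. The lowest lay in MC-21 replicate 4 for 21 (26.3%, against 27.8% of all tested genes), in MC-21 replicate 2 for 19 and in the others for 4 to 13 each. PBS replicates 5 and 8 were the 2 highest PBS libraries for 31 of 80 members (38.8%), against 25.3% of all tested genes. The endothelial markers summed to 3500 and 3082 RPKM in these 2 libraries, and to 2860 and 1824 RPKM in PBS replicates 6 and 7. Their sums in MC-21 replicates 2 to 4 were 2503, 3430 and 1817 RPKM, and their part was not tested. Measured from the PBS mean of each member, the median member was at 0.09 in PBS replicate 5, -0.03 in 6, -0.10 in 7 and 0.05 in 8, and at -0.09, 0.02 and -0.15 in MC-21 replicates 2, 3 and 4 on the log2 scale.

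None of the 7 lists of other genes of the pathway and of ribosomal proteins held an adjusted call in either direction. The counts that follow are at an unadjusted limma p under 0.05, which 11.2% of all tested genes passed on the lower and 3.59% on the higher side, and a share near these is no result about a list. Of 44 tested assembly factors, which build the complexes but are not part of them, 2 were higher (Cox17, a copper chaperone of complex IV, at 0.34, and Ndufaf6 at 0.52) and 2 lower (Ecsit, at -0.43, and Lrpprc, which stabilises mitochondrial mRNAs, at -0.60). Cycs, cytochrome c itself, was at 57.5 ± 3.83 RPKM in PBS (SD, n = 4) and 61.1 ± 12.2 RPKM in MC-21 libraries (SD, n = 3). In the list of 16 carriers and regulators that holds it, 2 were lower, the ATP synthase inhibitor Atpif1 at -0.40 and the outer membrane channel Vdac1 at -0.45. In the tricarboxylic acid cycle 1 of 23 was lower (4.35%), the cytosolic aconitase Aco1 at -0.68, while 19 of 23 had a negative difference (82.6%, against 69.4% of all tested genes), with a median of -0.20. Among the 14 regulators of mitochondrial gene expression 2 were lower, Tfam, the packaging factor of mitochondrial DNA, at -0.44 and Polg2, a subunit of its polymerase, at -0.67. Of the mitochondrial ribosomal proteins 7 of 77 (9.09%) and of the import genes 3 of 27 (11.1%) were lower and 0 higher, both close to the share of all tested genes. Of 87 cytosolic ribosomal proteins, which are of like abundance, 6 were lower and 1 higher, with a median of -0.04.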

How the data were processed

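The authors deposited RPKM values per gene, 1 column per library, from 3′ libraries sequenced on an Illumina NextSeq and, per the labels, mapped to mm9 with HISAT 0.1.5 and quantified in Partek 6.6. The transcript annotation, the treatment of reads with several positions and molecular barcodes are not given in the sources used here. The labels set the groups. Depth was read from the steps between low RPKM values. It came out within 1% of its most frequent value for 324 of 631 genes (51.3%), and 76.6% of 2573 low values were then whole reads to within 0.1, where 20% would be by chance. Genes that averaged 1 RPKM or more were compared on log2(RPKM + 1) with limma 3.58.1 (eBayes with a trend, R 4.3.3) and Benjamini-Hochberg adjustment over all of them; fold changes on this scale understate those of low genes. The scripts were tested on simulated data. Single values were also compared by exact permutation over the 35 splits. Copies were sought with blastn 2.17.0. The members, lists and tests were chosen with earlier results of these data known. Named members were the 3 highest of each complex (all of complex II), those with an unadjusted p under 0.05 (the 5 largest in each direction), isoforms, paralogues and rows around the filter; others were named after their values were seen. Alternatives changed the pseudocount, filter, scaling, variance model, test and libraries. Livers are the replicates. The values of 1 member are not reported here; counts, sums and medians include it.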

Additional observations from a re-analysis of the deposited data

Results flagged for a closer look

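In the 4 PBS libraries, 86 values (the 80 members, the sums of the 5 complexes and the sum of all) were checked for a library far from the other 3, and chance flags about 1 in 20 (5%). There were 2. Cox8b, the muscle form of a complex IV subunit, was at 12.4 RPKM in PBS replicate 7 and at 0 to 0.996 RPKM in the other PBS libraries, which is 12 reads against 0 or 1. Summed complex II was at 358 RPKM in PBS replicate 6 and at 296 to 302 RPKM in the others, with all of Sdha, Sdhb, Sdhc and Sdhd highest among PBS libraries there. In that library the hepatocyte markers (1614 RPKM, against 1189 to 1311 RPKM in the other PBS libraries) and the lymphocyte markers (43.6 against 19.7 to 22.6 RPKM) were also the highest of the group, and their part in the sum was not tested.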

How the results depend on the processing

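No member passed an adjusted p of 0.05 under any of 14 alternatives. The lowest adjusted p among the 35 named members was 0.0924 (limma). At an unadjusted p, the count of members higher in MC-21 was 0 with a pseudocount of 0.1, 0 with a filter of 5 RPKM, 2 with quantile normalization, 4 with centred libraries and 2 without moderation, and 0 to 2 without 1 library (2 without MC-21 replicate 2, 0 without PBS replicate 5 or MC-21 replicate 4). The count lower was 4 with quantile normalization, 1 with centring and 4 without a trend, and 3 to 9 without 1 library (4 without PBS replicate 5, 3 without PBS replicate 8 or MC-21 replicate 4). Shares of all tested genes at an unadjusted p are not given for these settings, so nothing is read from the counts. Centring moved the members' median to 0.078 and that of all tested genes to 0.018. The medians of complexes I, III, IV and V became 0.046, 0.12, 0.23 and 0.039. Without 1 library, the median of complex I ran from -0.22 (without MC-21 replicate 3) to -0.095. With quantile normalization, 1 member lay wholly higher, against 6.12% of all tested genes, and 2 lay wholly lower, against 4.97%. Without 1 library, the count with no overlap was 9 to 16. It was 13 without PBS replicate 6 or 7, 12 without MC-21 replicate 2 and 16 without MC-21 replicate 3. Groups of fewer libraries overlap less often for any gene, and no share of all tested genes is given, so nothing is read from this count. Of 35 named members, 23 kept their sign throughout. Centring turned Ndufa6 (0.15), Ndufa12 (0.037), Uqcrh (0.14), Uqcr10 (0.15), Atp5g2 (0.076), Cox7a2l (0.12), Atp5g1 (0.031), Cox6b1 (0.023) and Cox8a (0.11) positive, and quantile normalization turned Uqcrh (0.014) and Cox6a1 (-0.013). Leaving out 1 library turned the sign of Ndufa6 (-0.071 to 0.086), Uqcr10 (-0.086 to 0.079), Uqcrh (-0.054 to 0.0028), Sdhb (-0.023 to 0.058), Sdhd (-0.43 to 0.091), Cox6a1 (-0.028 to 0.12) and Cox7a2l (-0.16 to 0.040). The log2 difference in the ratio of complex IV to complex I was 0.14 to 0.24 under 12 alternatives chosen after seeing the data, against 0.19. Some of these left out 1 library, which cannot turn the sign where the groups do not overlap, so the sign is no support. No paired analysis was possible because the groups share no replicate numbers. The causes of these shifts were not tested. Depth limits statements on Uqcrb, Cox8b, Cox6a2 and Atp5s, and the log scale hides part of their change.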
